A study of Mus musculus with 7 samples.

Results

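The mRNAs of the histone gene clusters were read from CIRS-seq data of E14 mouse ESCs. They were taken as every transcript whose symbol starts with Hist1h, Hist2h, Hist3h or Hist4h. This rule gave 79 of the 26792 transcripts that could be matched to GENCODE vM1, and 70 of their 13218 genes. Of these genes, 6 encode linker histone H1, 20 encode H2A, 19 encode H2B, 12 encode H3 and 13 encode H4, by their symbols. Chromosome 13 holds 56 of them, chromosome 3 holds 10, chromosome 11 holds 3 and chromosome 6 holds 1. The annotation calls 67 of the genes protein coding, and the other 3 (Hist1h2aj, Hist3h2bb-ps and Hist2h3c2) pseudogenes.

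CIRS-seq counts, at each base of a transcript, the reverse transcription (RT) stops that mark it. DMS (dimethyl sulfate) mainly modifies unpaired A and C, and CMCT, a carbodiimide, mainly unpaired U and, less, G. All libraries came from 129/Ola E14 ESCs, an established cell line that was kept in medium with serum and LIF. The cells were lysed and the lysate was treated with Proteinase K, so that the RNA was probed without most of its proteins. DMS libraries pool treatments at 50 to 200 mM, CMCT libraries pool treatments at 10 to 50 mM, and non-treated (NT) libraries pool the lysates that got 0 mM of either reagent. DMS and CMCT were applied in different buffers, so that each of them differs from part of the NT material also in its buffer. There were 2 replicates of each, and RNA-seq of ribosomal RNA-depleted total RNA was made in 1 library of the same untreated cells. Both assays start from total RNA, without selection for poly(A) tails.

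Replication-dependent histone mRNAs are made in S phase, when new DNA has to be packed. They are the animal mRNAs that end without a poly(A) tail. Instead, a short stem-loop in the 3′ UTR is bound by the stem-loop binding protein SLBP, and the transcript is cut a few bases after the stem-loop with the help of U7 snRNP. H2A, H2B, H3 and H4 form the core of the nucleosome, and each of these core histones is encoded by many nearly identical genes. H1 binds the DNA between nucleosomes.

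The stem-loop was looked for first, because it marks where such an mRNA ends. The genome was searched on the transcript strand for GG, 3 bases of any kind, TT, any base, T, any base, A, 3 bases of any kind and CC, with 6 paired bases on each side of the loop (G-U pairs included), in the 100 bases after the stop codon. It was present in 62 of the 67 coding members, and it began 21 to 58 bases after the stop codon (median 30.5). Of the other protein-coding genes, 1 of 7040 (0.0142%) held it. Among members, 8 different stem-loops were found, and 1 of each of the 5 commonest is printed here with 5 flanking bases, the stem-loop in capitals, read from mm9 (NCBIM37).
Hist1h1a: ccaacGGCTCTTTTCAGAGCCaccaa
Hist1h3c: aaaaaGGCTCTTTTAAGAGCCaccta
Hist1h4f: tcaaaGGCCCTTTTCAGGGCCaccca
Hist1h4b: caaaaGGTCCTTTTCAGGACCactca
Hist2h4: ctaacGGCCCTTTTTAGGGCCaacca

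The form of Hist1h1a (chr13:23856261-23856276, plus strand) was shared by 38 genes, that of Hist1h3c (chr13:23836916-23836931, minus strand) by 9 and that of Hist1h4f (chr13:23643160-23643175, minus strand) by 8. The forms of Hist1h4b (chr13:23849235-23849250, plus strand) and Hist2h4 (chr3:96066862-96066877, minus strand) were each held by 2 genes. All 5 forms have the same pairs of G and C at the foot of the stem, and differ in its middle, at the last base of the loop, or at both. The 5 coding members without a match were Hist1h2al, Hist1h2an, Hist1h2br, Hist2h2bb and Hist2h2be, which says only that these letters were not in this window. In 45 genes the stem-loop lay inside an annotated transcript, in its 3′ UTR, and in 17 it lay beyond the annotated end.

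A second set of sequences shows how far the copies can be told apart. At codon 52 of H4 and codon 43 of H2B, RT stops fell on a U at nearly the same place in many copies, and in its commonest form the first led all positions of members in NT and DMS and the second in CMCT, by the mean rate of both replicates. The 26 bases from the marked base onward are printed 5′ to 3′ as DNA. Capitals show the base that the RT stop marks and every base that differs from the commonest form of that site.
H4 codon 52, Hist1h4a and 8 other genes: Tacgaggagacccgcggtgtgctgaa
H4 codon 52, Hist1h4f: TacgaggaAacccgcggtgtgctgaa
H4 codon 52, Hist1h4d and Hist2h4: TacgaggagacccgTggtgtgctgaa
H4 codon 52, Hist4h4: TacgaggagacTcgcggtgtCctCaa
H2B codon 43, Hist1h2bb and 12 other genes: Tacaaggtgctgaagcaagtgcaccc
H2B codon 43, Hist1h2bm: TacaaggtgctAaagcaagtgcaccc
H2B codon 43, Hist2h2be: TacaaAgtgctgaagcaGgtgcaccc

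The first of these forms occurs at 9 places in mm9, and the forms of Hist1h4f (chr13:23643359, minus strand), Hist4h4 (chr6:136752747, minus strand), Hist1h2bm (chr13:21814093, plus strand) and Hist2h2be (chr3:96025215, plus strand) occur at 1 place each. A position is called found once when the 25 bases that follow it occur at 1 place in mm9, on both strands together. Of the positions of members, 52.9% were found once, against a median of 87.0% over the other protein-coding genes. The RT stops were more unevenly spread, with 6.79% of those of members at positions found once. For the other protein-coding genes this was 6.87%.

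Depth and the 2 replicates set limits on what follows. The RT stops of a library, each position taken once per gene, summed to between 140186204 and 247369982. Among members, 61.3% of the RT stops were at positions whose next bases have over 10 places in the genome. By class it was 82.6% for H2A, 78.6% for H2B, 30.2% for H4, 28.8% for H3 and 1.86% for H1. Where members share a run of 25 bases, 33.7% to 37.6% of the runs with at least 20 RT stops had counts within 1 of each other in all copies, so that members of a class are not independent of each other. The replicates were also closer than counting noise allows at many positions. Of the runs found once with at least 20 RT stops over both replicates, 35.6% in NT, 29.3% in DMS and 33.9% in CMCT had replicate counts that differed by at most 1, where counting noise gives 16.1%, 15.7% and 15.6%. The other genes had 36.0%, 39.5% and 32.2%. An adjusted p can then be smaller than the spread between independent samples would give, and its part in each result was not tested except by leaving out these positions.

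The 9 markers of ESCs were listed in RNA-seq at 7.46 (Klf4) to 221 (Dppa5a) alignments per kb of exon per 1000000 alignments (RPKM), with Pou5f1 at 74.9 and Nanog at 55.6. Markers of fibroblasts, endoderm, mesoderm and neural cells were at 3.10 (Gata6) or less, and Afp was at 0.

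Histone mRNAs were read far more densely than the median mRNA in these libraries. They took 1.45% and 0.897% of all RT stops in the NT replicates, 1.60% and 1.75% in DMS and 1.20% and 1.41% in CMCT. Counted so that each distinct run of 25 bases enters once per histone class, their share was 0.275% and 0.202%, 0.322% and 0.343%, and 0.234% and 0.308%. Among positions found once, members took 1.09% and 1.10% in NT, 1.5% and 1.48% in DMS and 0.961% and 1.16% in CMCT. On all positions both DMS libraries were above both NT libraries, but the NT replicates differed more from each other than DMS replicate 1 did from NT replicate 1. On positions found once, the DMS libraries were again above both NT libraries, which lay close together, and the CMCT libraries lay on both sides of NT. With 2 libraries on each side, an exact permutation test cannot go below p = 0.33, and none was made.

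The median member had 416 and 258 RT stops per kb per 1000000 RT stops of the library in NT, 452 and 467 in DMS, and 333 and 366 in CMCT. The other protein-coding genes had medians of 4.27 to 5.55. H1 genes, at median rates of 20.9 to 53.0 in the 6 libraries, lay well below the core histones. H2A (276 to 578), H2B (300 to 566) and H4 (347 to 730) overlapped one another over the libraries, and H3 ran from 197 to 320. Where copies share a sequence, the same RT stops can be listed on each of them, so that the order of the classes can not be read as an order of abundance.

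**Figure D1:**
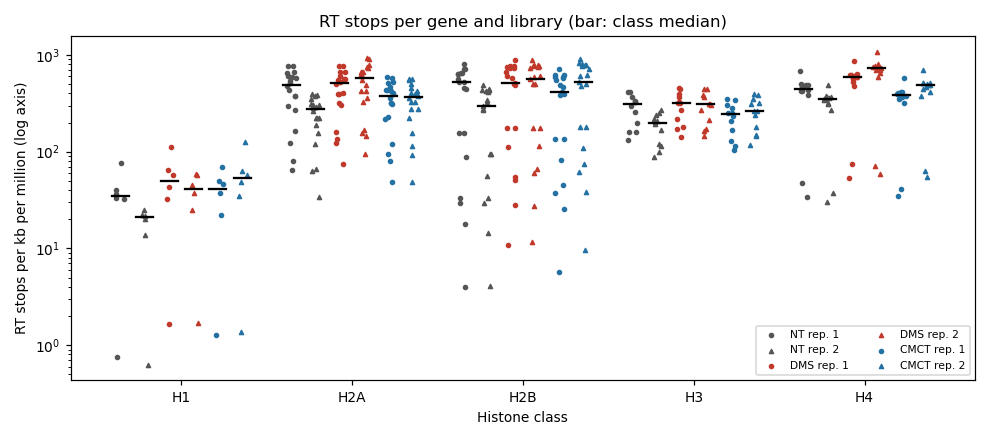
RT stops per kb of transcript per 1000000 RT stops of the library (log scale) in each of the 6 libraries, by histone class, 1 point per gene with the median as a bar. H1 genes, with medians of 20.9 to 53.0, sit below the 4 core classes, whose medians run from 197 to 730.

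RNA-seq gave an order by class from 1 library, without a replicate. The median H4 gene had an RPKM of 957 in RNA-seq, the median H3 gene 514, H2B 480, H1 121 and H2A 105, and the other protein-coding genes 3.66. Read starts whose next 25 bases occur once gave lower levels, with H4 at 149, H2B at 126, H1 at 95.4, H3 at 63.7 and H2A at 34.0. H4 led on both measures, while H3 fell from the second to the fourth place. Only 70573 of the 519601 alignments within members (13.6%) were of reads listed once, and a read in a member was listed up to 10 times.

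Over all alignments the highest level of a member was that of Hist1h4k, at an RPKM of 1706. By read starts found once it had 107, below the H4 median, and the highest was Hist1h4n at 1371. Both of these levels rest on few bases. Hist1h4n has 16 positions found once, in its 5′ UTR, and Hist1h4k has 27, in its coding region. Over all alignments, the lowest level above 0 was that of Hist2h2be, at 0.372. For Hist2h2aa1 no level can be read, since just 16 of its 578 exon bases lie outside the exons of other genes, and none of the alignments counted was there; without that limit, 758 alignments were centred in the 50 bases before its stem-loop, and 759 in Hist2h2aa2. Hist2h2ab had no exon bases outside other genes. Over 69 members, RT stops per base and RNA-seq levels had a Spearman correlation of 0.53, and of 0.45 over the 62 members with values from positions found once. These are descriptions across genes that share reads.

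**Figure D2:**
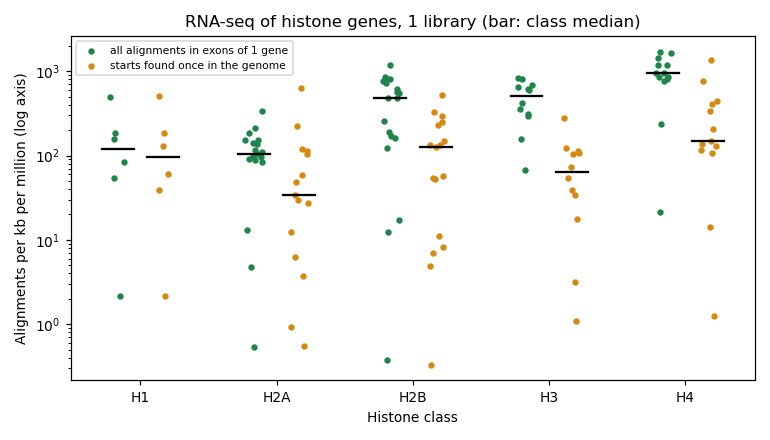
RNA-seq alignments per kb of exon per 1000000 alignments (RPKM, log scale) of each member by histone class, over all alignments and over read starts whose 25 bases occur once, with class medians as bars. The median of H4 is the highest on both, at 957 and 149, and a level of 0 cannot be drawn on this axis.

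Whether a reagent changed the RT stops of a whole gene was asked first, since that would move all bases together. Against NT, 1 of 70 members rose in DMS and none fell, where 13.8% of all 13216 genes tested rose and 12.5% fell. In CMCT, no member rose or fell with edgeR (no member at an unadjusted p under 0.05, and 2 that fell with DESeq2), where 15.0% of all genes rose and 13.9% fell. The median log2 fold change of members was -0.04 in DMS, against 0.01 over all genes, and -0.27 in CMCT, against 0.11. With RLE scaling the median of all genes in CMCT was 0.01 and that of members -0.36.

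The member that rose was Hist2h2be, an H2B gene on chromosome 3. Its RT stops were 1914 and 1743 in NT, 4788 and 4729 in DMS and 3668 and 3519 in CMCT. Both DMS counts were above both NT counts. Its log2 fold change in DMS was 0.91 ± 0.29 (SE, n = 2 per treatment, adjusted p = 0.0353 with edgeR's quasi-likelihood test). The call was lost with RLE scaling (0.91, adjusted p = 0.0518), at positions found once (0.37, adjusted p = 0.398), without positions of near-equal replicates (0.39, adjusted p = 0.365), and without any 1 of the NT or DMS libraries (0.76 to 1.06, adjusted p = 0.109 to 0.147).

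At positions found once, other members passed. In DMS, Hist1h1c (1.05 ± 0.22, adjusted p = 0.0419) and Hist1h2bl (1.22 ± 0.27, adjusted p = 0.0467) rose and Hist2h3b fell (-1.58 ± 0.31, adjusted p = 0.0335), of 65 members tested, where 6.3% of all genes rose and 2.64% fell. In CMCT, Hist1h2ae (-1.67), Hist1h3c (-1.51) and Hist2h3b (-1.51) fell, where 1.22% of all genes did, and no member rose (4.35%). Hist2h3b, an H3 gene, had 2124 and 2107 RT stops at 88 such positions in NT, 961 and 973 in DMS and 1161 and 1122 in CMCT. For Hist1h3c, most of the fall in CMCT lay at a single C of its 5′ UTR, with 1651 and 1806 RT stops in NT and 260 and 142 in CMCT.

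Single bases changed where most totals did not. In DMS, RT stops at A rose in 68 of 70 members, by a median log2 fold change of 1.70, where 59.5% of all genes tested rose at A, by a median of 1.23. All 20 genes of H2A, 18 of 19 of H2B, all 12 of H3, all 13 of H4 and 5 of 6 of H1 rose. The class medians were 1.57 for H2A, 1.35 for H2B, 1.94 for H3, 1.95 for H4 and 2.12 for H1, against 1.10 for the other protein-coding genes. The count fell to 34, 33 and 36 of 70 members without NT replicate 1, NT replicate 2 and DMS replicate 2, where 47.4%, 49.3% and 51.7% of all genes rose, so that members were then called about as often as genes at large. It was 67 without DMS replicate 1 (56.6% of all genes), and 68 and 69 without CMCT replicate 1 and CMCT replicate 2 (59.5% and 65.0%). Hist1h4d ran from 1.64 to 2.20 over these 6 runs, and Hist1h1d from -0.06 to 0.39. Among positions found once, 50 of 62 members tested rose at A, where 71.6% of all genes did. Without the positions of near-equal replicates, 61 members rose, and 60.4% of all genes.

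The 2 members that did not pass at A were Hist1h1d and Hist1h2ba, named after their values were seen. Hist1h2ba, a testis H2B gene by its known role, had 5604 and 2834 RT stops at A in NT and 9971 and 13169 in DMS (1.00 ± 0.37, adjusted p = 0.0692). Hist1h1d had 3778 and 3547 in NT and 5112 and 6471 in DMS (0.13 ± 0.34, adjusted p = 0.778). Read only where it is found once, the same gene went from 665 and 641 to 2414 and 3506 (1.87 ± 0.35, adjusted p = 0.0063). Its RT stops beyond the stem-loop, which are at repeated sequences, are described further on.

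For the H1 genes, Hist1h1a gave 680 and 422 RT stops at A in NT and 3158 and 3583 in DMS (2.13 ± 0.28, adjusted p = 0.00219). Hist1h1t, the testis H1 gene, had the largest change of all members from the smallest counts, 7 and 2 in NT and 74 and 92 in DMS (3.70 ± 0.44). Its NT counts were under the filter on low counts, so that it was tested at A only through the treated libraries. It is among the members counted above as rising at A, but its own call is not a result. The 2 H1 genes are read nearly free of copies, with 98.2% and 99.7% of their positions found once.

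For the H2A genes, Hist1h2ak gave 5627 and 3184 RT stops at A in NT and 13404 and 22644 in DMS (1.58 ± 0.42, adjusted p = 0.0218). At its positions found once the counts were 1427 and 1274 against 2015 and 2854, which did not pass (0.55 ± 0.34, adjusted p = 0.245). Hist3h2a, on chromosome 11, went from 4164 and 2128 to 9584 and 14782 (1.505 ± 0.40, adjusted p = 0.0205), and still rose at positions found once (1.21 ± 0.33, adjusted p = 0.0271).

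Of the H2B genes, Hist1h2bb went from 6719 and 3819 to 15908 and 20680 (1.33 ± 0.38, adjusted p = 0.0278) and Hist1h2bm from 6552 and 3901 to 15618 and 19965 (1.29 ± 0.38, adjusted p = 0.0288). The 2 genes have most of their sequence in common, and their counts lie close together in every library. Where they share none, at positions found once, Hist1h2bb rose by 2.42 ± 0.33 and Hist1h2bm by 1.23 ± 0.30. Hist2h2be had the lower counts of 197 and 202 in NT and 1145 and 1202 in DMS (2.01 ± 0.31, adjusted p = 0.00291).

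Among H3 genes, Hist1h3g went from 1798 and 1366 to 7914 and 10682 (2.05 ± 0.35, adjusted p = 0.00389) and Hist1h3c from 2280 and 1679 to 7666 and 10849 (1.73 ± 0.35, adjusted p = 0.00711). With positions found once alone, Hist1h3g still rose (1.38 ± 0.32, adjusted p = 0.0140), while Hist1h3c had 362 and 274 against 508 and 485 and did not pass (0.35 ± 0.24, adjusted p = 0.298). The difference between the 2 genes was not tested.

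Among H4 genes, Hist1h4f went from 3318 and 2472 to 11402 and 17872 (1.84 ± 0.40, adjusted p = 0.00873) and Hist1h4d from 3229 and 2450 to 11925 and 17717 (1.89 ± 0.39, adjusted p = 0.00725). Both rose at positions found once, by 1.70 ± 0.34 and 2.75 ± 0.33. Hist1h4k, the member with the highest RNA-seq level over all alignments, went from 3671 and 2675 to 13443 and 21367 (1.97 ± 0.41, adjusted p = 0.00738). DMS replicate 2 was above DMS replicate 1 in each of these 3 genes, and both were above NT.

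DMS did not raise the other base it prefers. At C, 1 member rose and none fell, where 8.4% of all genes rose and 13.1% fell; the median was -0.32 for members and for the other protein-coding genes. The member was again Hist2h2be, at 964 and 816 in NT and 2695 and 2610 in DMS (1.05 ± 0.29, adjusted p = 0.0255). At G, 9 members fell (25.1% of all genes fell), 8 of them H3 genes, and at U, 32 fell (31.5% of all genes), 18 of them H2A and 11 H3 genes. These are differences relative to the library totals.

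Relative to the library totals, CMCT did not raise U in the same manner. The median change of member totals in CMCT was also below that of all genes, as given above. As a share of a gene's own RT stops, U was above NT in both CMCT libraries in 59 of 70 members (67.2% of all genes). At positions found once this was so in 45 of 62 (70.5%). In the fit, RT stops at U rose in 1 of 70 members, where 19.6% of all genes rose, and the median log2 fold change was 0.26, against 0.42 over all genes. More members passed with DESeq2, with the replicate block and at positions found once, but the shares over all genes there are not given. By class the medians were 0.79 in H1, 0.46 in H2B, 0.26 in H4, 0.08 in H3 and -0.02 in H2A. The member that rose was Hist2h2be, at 375 and 375 in NT and 1130 and 1113 in CMCT (1.09 ± 0.30, adjusted p = 0.0427). This call was lost at positions found once (1.01), without positions of near-equal replicates (0.70), and without NT replicate 1, NT replicate 2, DMS replicate 1 or CMCT replicate 2 (0.86 to 1.35, adjusted p = 0.0568 to 0.148). Hist1h1a had 1464 and 832 in NT and 3811 and 2431 in CMCT, which did not pass (0.96 ± 0.31, adjusted p = 0.0688).

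At A in CMCT, Hist1h1t had 32 and 17 RT stops against 7 and 2 in NT (1.92 ± 0.48), tested only through the treated libraries. Its call there, where 11.0% of all genes rose, is therefore not a result. CMCT lowered Hist1h1d at A, from 3778 and 3547 to 2442 and 2013 (-1.23 ± 0.35, adjusted p = 0.0480), where 4.47% of all genes fell. At its positions found once Hist1h1d did not pass, from 665 and 641 to 1014 and 613 (-0.38 ± 0.34, adjusted p = 0.498), which leaves out the repeated stretch far beyond its stem-loop. At C and G no member passed with edgeR.

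**Figure D3:**
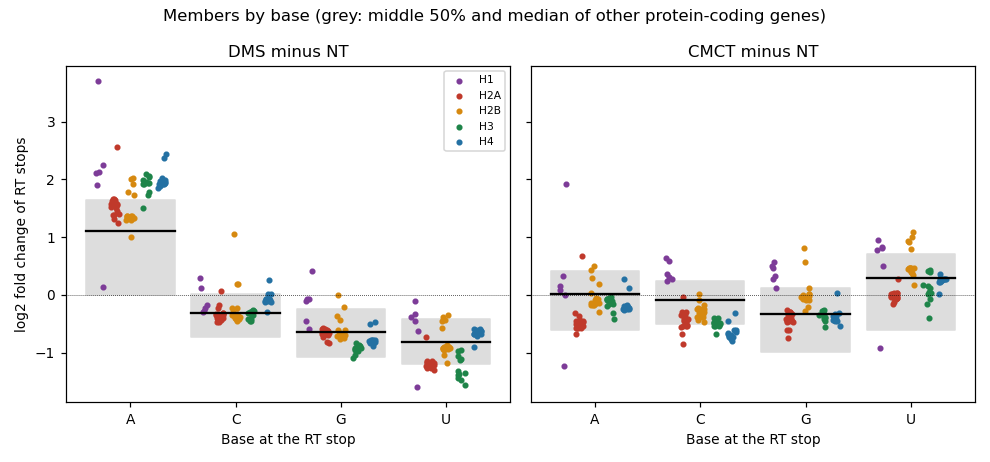
Log2 fold change of RT stops at A, C, G and U of each member, DMS over NT and CMCT over NT, coloured by histone class, 1 point per gene; the grey box and bar are the middle 50% and the median of the other protein-coding genes. In DMS all class medians at A lie between 1.35 and 2.12, while those at U in CMCT lie between -0.02 and 0.79.

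The share of a gene's own RT stops at each base does not depend on the library total. Over all members, A took 10.3% and 12.1% of the RT stops in NT, 28.0% and 41.2% in DMS and 10.1% and 11.1% in CMCT, while 24.1% of the positions are A. In the other protein-coding genes, pooled, it was 14.04% and 15.5%, 18.2% and 21.2%, and 14.3% and 12.7%. That gap in DMS was much smaller gene by gene and at positions found once. The median share at A in DMS was 28.6% and 39.999% over members and 27.5% and 34.5% over the other protein-coding genes, and at positions found once members together had 31.97% and 38.04%, against 30.7% and 38.7%. U took 20.5% and 26.3% in NT, 14.3% and 10.5% in DMS and 29.4% and 32.7% in CMCT, with 21.9% of positions. Both DMS libraries were above both NT libraries at A, and both CMCT libraries were above both NT libraries at U. C held 55.8% and 43.6% in NT and stayed the commonest base in CMCT (46.2% and 41.2%) and in 1 DMS replicate (47.5%); in the other DMS replicate, A was above C (38.9%). At positions found once the order in CMCT was turned, with 38.5% and 38.4% at U against 33.9% and 33.2% at C.

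Gene by gene, both DMS libraries were above both NT libraries for the share at A in 69 of 70 members, where 79.7% of all genes were. Over positions found once it was 61 of 62, where 85.2% of all genes were. For the share at U, both CMCT libraries were above both NT libraries in 59 of 70 members (67.2% of all genes), and in 45 of 62 at positions found once (70.5%). The 2 DMS replicates differ more from each other in the share at A than the 2 NT replicates do.

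The single positions with most RT stops differed in part between the treatments. In NT the U of H4 codon 52 was followed by a U at codon 85 of H2B (15 genes), with 3728 and 2437 RT stops, and by a C at codon 74 of H2A (17 genes), with 4139 and 1503. In DMS the U of H4 codon 52 was followed by an A at codon 65 of H4, and in CMCT it came after the U of H2B codon 43. The U of H4 codon 52 is thus the 1 position that led or came second in every treatment.

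The U of H4 codon 52 in its commonest form had 3552 and 2671 RT stops in NT, 4268 and 3086 in DMS and 5221 and 4819 in CMCT. In the form of Hist1h4f, which is found once, it had 2076 and 1994, 2757 and 2648, and 3503 and 3482. The form of Hist1h4d and Hist2h4 had 2736 and 2328, 3095 and 2731, and 4289 and 4075. So this U gave RT stops without any reagent in each of these 3 sequence forms, and its counts relative to the library total were highest in CMCT replicate 2.

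Hist4h4, the H4 gene that lies alone on chromosome 6, had far fewer at the same U, with 126 and 66 in NT, 121 and 68 in DMS and 125 and 174 in CMCT. Its RNA-seq level was an RPKM of 235, against 1197 for Hist1h4d. Among H4 genes 11.6% of the alignments were of reads listed once, so that these levels cannot be read as a difference in abundance. At the U of H2B codon 43, the commonest form had 1710 and 1617 in NT, 2192 and 2079 in DMS and 5528 and 5327 in CMCT.

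In Hist1h2bm, where that U is found once, the counts were 1297 and 1298, 1635 and 1634, and 4203 and 4203. Hist2h2be had 171 and 170, 265 and 264, and 682 and 683. The replicates of both genes differ by at most 1 in every treatment, although the library totals differ. Per 1000000 RT stops of the library, Hist1h2bm had 7.15 and 7.96 in NT, 9.59 and 10.6 in DMS and 17.0 and 30.0 in CMCT, and CMCT was above NT in both replicates. The site was chosen because it led in CMCT, so that CMCT above NT there is not a result.

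The A at codon 65 of H4, among the leading positions in DMS alone, had few RT stops without DMS. In the form shared by 11 genes it had 288 and 265 RT stops in NT, 2475 and 2968 in DMS and 385 and 355 in CMCT. The capitals of the 3 forms mark the same as above.
H4 codon 65, Hist1h4a and 10 other genes: Aacgtgatccgcgacgccgtcaccta
H4 codon 65, Hist4h4: AaTgtgatccgcgacgccgtcaccta
H4 codon 65, Hist2h4: AacgtCatccgcgacgcAgtcaccta

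Hist4h4 had 54 and 53 in NT, 1007 and 1004 in DMS and 86 and 86 in CMCT. Hist2h4 had 67 and 67, 623 and 628, and 147 and 146. In these 2 genes the position is found once, and DMS was above NT and CMCT in both replicates of all 3 forms. The position was chosen because it was among the leading ones in DMS alone. That DMS is above NT and CMCT in the form shared by 11 genes follows from this choice and is not a result.

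**Figure D4:**
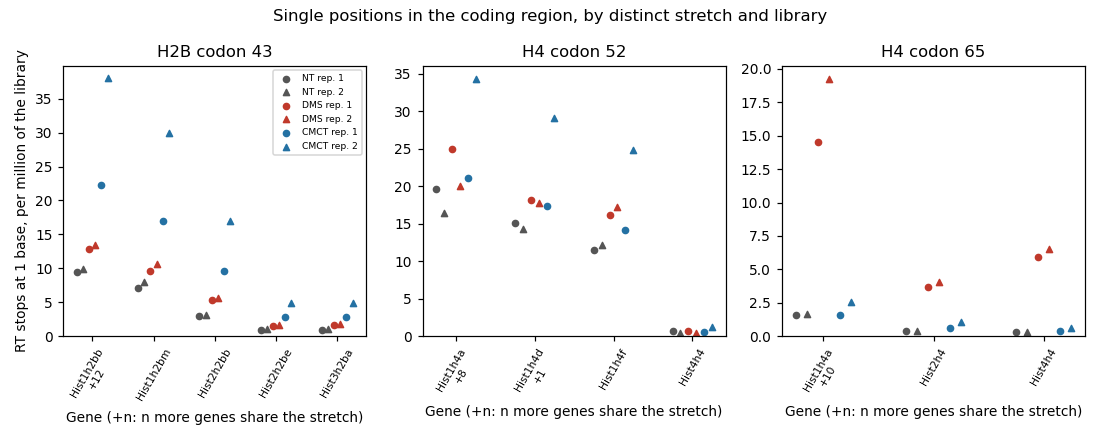
RT stops per 1000000 RT stops of the library at the U of H2B codon 43, the U of H4 codon 52 and the A of H4 codon 65, 1 point per library and sequence form, each form named by 1 gene with the number of further genes that hold it. The A of codon 65, chosen by its rank in DMS, is higher in DMS than in NT in every form, from 1.59 and 1.63 in NT to 14.5 and 19.3 in the form shared by 11 genes.

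The 5′ UTR, the coding region and the 3′ UTR were read at very unequal rates. Coding regions had median rates of 605 and 363 RT stops per kb per 1000000 RT stops of the library in NT, 709 and 825 in DMS and 497 and 522 in CMCT, over 67 genes. The 5′ UTRs, in 45 genes with at least 20 measured bases, had 102 and 89.8 in NT, 104 and 123 in DMS and 83.8 and 121 in CMCT. The 3′ UTRs, in 49 genes, had medians of 0.0373 to 0.174, and lay below the coding region in all 49. The median ratio of 3′ UTR to coding region was 0.000132 to 0.000346 in the 6 libraries, against 0.981 to 1.19 in the other protein-coding genes. At positions found once it was 0.000393 to 0.000821, against 0.607 to 0.730. The member ratios rest on very few RT stops, and many of these 3′ UTRs had too few to be tested, as given below. Many of their annotated bases also lie in or beyond the stem-loop, so that the ratios give no measured level for the 3′ UTR.

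The 5′ UTR had a median of 0.18 to 0.33 times the rate of the coding region over all positions, against 0.59 to 1.05 in the other protein-coding genes. Over positions found once, it was 0.76 to 1.59 times, against 0.56 to 1.01. The regions with at least 20 measured bases held 2430 positions found once of 2958 in 5′ UTRs, and 8169 of 26634 in coding regions. The position found once with most RT stops in NT after Hist1h4f was a C in the 5′ UTR of Hist1h3c (chr13:23837391, minus strand), with 1651 and 1806 in NT, 1637 and 1684 in DMS and 260 and 142 in CMCT. CMCT was below NT there in both replicates, at a position chosen by its rank in NT.

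In the fit over regions, CMCT lowered 10 and raised 2 of the 55 5′ UTRs of members that passed the filter, where 18.6% of all 5′ UTRs fell and 1.72% rose. These counts depend on single libraries, since far fewer member regions of any kind passed in CMCT without NT replicate 2, CMCT replicate 1 or CMCT replicate 2. Hist1h2ae, an H2A gene, went from 3038 and 2950 RT stops to 1466 and 944 (-1.94 ± 0.31, adjusted p = 0.00885), and Hist1h3c from 3089 and 2929 to 1579 and 1021 (-1.83 ± 0.29, adjusted p = 0.00858). At positions found once the fold changes were as large, at -2.08 ± 0.34 and -2.04 ± 0.30, and both had an adjusted p of 0.0634. In Hist1h3c most of the fall lay at the C named above, with 1651 and 1806 RT stops in NT and 260 and 142 in CMCT. In DMS, 3 rose and 3 fell (2.91% and 9.93%). Fewer member regions of any kind passed in DMS without NT replicate 2, DMS replicate 1 or DMS replicate 2. The shares over all regions in these runs are not given, so that neither drop is particular to members. Coding regions changed in 1 of 67 members in DMS, Hist1h1t, which rose (6.89% of all rose and 1.03% fell), and in none in CMCT by edgeR (9.08% and 0.62%).

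Of the 49 3′ UTRs, 23 had enough RT stops to be tested, and some of these only through their RT stops in DMS, so that no count of those that passed is given. Hist1h4c had 5 and 5 in NT, 132 and 131 in DMS and 12 and 11 in CMCT. Hist1h4h had 1 and 0, 70 and 70, and 1 and 2, and Hist1h3b 0 and 0, 32 and 33, and 2 and 2. DMS was above NT in both replicates in each, from NT counts of at most 5. With NT counts this low, these regions were tested through their RT stops in DMS. That DMS is above NT in them is therefore not a result.

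Hist1h3f had more, with 71 and 73 in NT, 211 and 216 in DMS and 54 and 50 in CMCT (1.11 ± 0.30 for DMS, adjusted p = 0.0406). The replicates agree within a few counts in every one of these 3′ UTRs. With positions found once, no region of any gene passed with edgeR in DMS or in CMCT. Of all 14887 regions, 4111 and 4231 had an unadjusted p under 0.05 there. Lost calls do not mean smaller counts, since Hist1h4c still had 5 and 5 in NT and 132 and 131 in DMS. Hist1h4h still had 1 and 0 against 70 and 70, and Hist1h3b 0 and 0 against 32 and 32, with the limit on the filter given above.

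The RT stops ran out ahead of the stem-loop. In 35 genes the whole stem-loop was measured, since the last 25 bases of a transcript can not be read. From 75 to 26 bases before the stem-loop, a window that lies partly in the coding region, there were 4.25 and 3.58 RT stops per base in NT, 9.05 and 8.99 in DMS and 5.18 and 4.50 in CMCT. In the last 25 bases before it there were 17 and 11 RT stops in NT, 160 and 158 in DMS and 35 and 28 in CMCT, over 875 bases in all. In the stem-loop itself there were 3 and 2 in NT, 0 and 0 in DMS and 5 and 2 in CMCT, over 560 bases.

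The loop, which is mostly U, and the paired bases around it thus had no RT stop in DMS. A count of 0 over the 454 of these bases that are found once allows up to 0.00661 RT stops per base in a DMS library, counting error only. Positions are listed only up to 25 bases before the annotated end, and an mRNA that ends a few bases after the stem-loop could leave no read of that length from the stem-loop or from the bases just before it. The reach of the reads and the reactivity of the stem-loop cannot be told apart here.

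From 21 to 80 bases after the first base of the stem-loop there were 50 and 52 RT stops in NT, 45 and 33 in DMS and 83 and 39 in CMCT, over 1284 bases. Over positions found once, 22 of the 23 genes with bases to compare had a lower rate there than before the stem-loop. In 20 genes RNA-seq read both sides, with 7102 alignments centred before (7.10 per base) and 111 after (0.0925 per base), and it was lower after in 20 of 20. Of these alignments, 3881 before and 73 after were of reads listed once. Hist2h2aa1 (758 before) and Hist2h2aa2 (759) had none of those, so that the 20 genes are not independent. Hist1h1c, an H1 gene in which all bases of both windows are found once, had 95 and 54 RT stops before in NT, 302 and 272 in DMS and 69 and 54 in CMCT. After the stem-loop it had 7 and 8, 9 and 5, and 20 and 14.

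**Figure D5:**
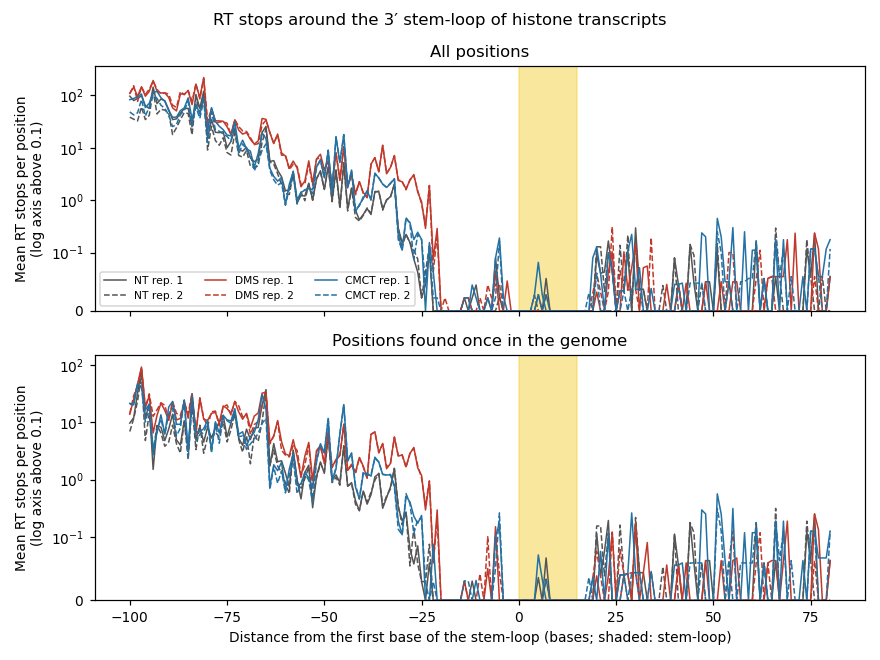
Mean RT stops per position (log axis above 0.1) against the distance in bases from the first base of the stem-loop, in each of the 6 libraries, over all positions and over those found once, with the stem-loop shaded. The upper curves average all genes measured at each distance, 45 at 75 bases before the stem-loop, 37 at its first base and 17 at 80 bases after. Over the 35 genes with a fully measured stem-loop, window rates fall from 3.58 to 9.05 per base at 75 to 26 bases before it. In the last 25 bases before it they are between 0.0126 and 0.183.

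Beyond 80 bases, some annotated transcripts go on much further. Positions found once had 0.0152 and 0.0137 RT stops per base there in NT, 0.0154 and 0.0193 in DMS and 0.0228 and 0.0146 in CMCT. Hist1h1d made an exception over all positions, with 8216 and 8201 in NT, 3386 and 3466 in DMS and 2931 and 2872 in CMCT. Most lay at A and U in a stretch 2246 to 2258 bases after the stem-loop, whose following bases have 2 to 14 places in the genome. The highest, an A at chr13:23649902 (plus strand), had 1837 and 1838 in NT, 601 and 602 in DMS and 565 and 566 in CMCT, or 20.7% of the RT stops of that gene beyond 80 bases. Over all 2985 bases of Hist1h1d beyond 80 bases, 38 RNA-seq alignments were centred. The RT stops beyond 80 bases made up nearly all of the 8222 and 8212 RT stops in NT of the 3′ UTR of Hist1h1d, which fell in DMS (-1.72 ± 0.37, adjusted p = 0.0162) and in CMCT (-2.05 ± 0.37, adjusted p = 0.00964) by edgeR. At its positions found once neither passed, with 38 and 50 RT stops in NT, 37 and 67 in DMS (-0.30 ± 0.52, adjusted p = 0.744) and 66 and 41 in CMCT (-0.51 ± 0.52, adjusted p = 0.561). Hist2h4 had 173 and 166, 691 and 683, and 371 and 356 there, mostly at sequences with many places.

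The genes that make, keep and pack histone mRNAs and proteins were read in the same fit, in which 13.8% of all genes rose and 12.5% fell in DMS, and 15.0% and 13.9% in CMCT. Of 14 tested among 20 genes of histone mRNA processing, 1 rose and 1 fell in DMS, and 1 rose and 2 fell in CMCT, with medians of -0.53 and 0.28. Slbp, which encodes the protein that binds the stem-loop, had 17593 and 16522 RT stops in NT, 16746 and 27146 in DMS and 19463 and 14581 in CMCT, and passed in neither. Eri1, the exonuclease that trims the end of histone mRNA, rose in DMS (0.70 ± 0.24, adjusted p = 0.0465), and Dhx9, a helicase, in CMCT (0.77 ± 0.26, adjusted p = 0.0397). Cstf2t, a paralog of a cleavage factor subunit, fell in both (-1.61 and -1.64), and Sympk, the scaffold of the cleavage factor, in CMCT (-2.20 ± 0.54, adjusted p = 0.0101).

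Most replacement histones are made throughout the cell cycle, mainly from mRNAs with poly(A) tails. Of 11 tested, 2 rose in DMS, H2afy2, a macroH2A gene (1.56 ± 0.24, adjusted p = 0.000986), and H1f0 (0.97 ± 0.28, adjusted p = 0.0234). In CMCT, H2afy2 (0.74 ± 0.24, adjusted p = 0.0372) and H1fx (0.83 ± 0.28, adjusted p = 0.0454) rose, and none fell in either. Of 17 histone chaperones, none rose and 3 fell in DMS, and 1 rose and 3 fell in CMCT. The medians of the 3 lists lay between -0.53 and 0.33. With so few genes in each list, these counts are near the shares over all genes and show nothing about the lists.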

How the data were processed

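CIRS-seq was analysed in 6 libraries of E14 mouse ESCs (NT, DMS and CMCT, 2 replicates each) and RNA-seq in 1. The authors deposited raw counts of RT stops at every transcript position, mapped to a variant of mm9 with variants of E14 (here plain mm9 gave the sequences, and GENCODE vM1 the genes), and RNA-seq as single alignments. Their notes name Bowtie 1.0.0, FastQC 0.10.1, bedtools 2.17.0 and TopHat2 2.0.6. How reads with several places were treated is not given in the sources used here. The study calls its replicates biological, but neither it nor the labels say whether they were separate cultures, so that p-values may measure technical spread.

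A genomic position entered a gene's sum only once. Counts per gene, per gene and base, and per gene and region were fitted over all features and all 6 libraries with edgeR 4.0.16 in R 4.3.3 (quasi-likelihood test after TMM scaling and filterByExpr; threshold 0.05 after Benjamini-Hochberg adjustment). DESeq2 1.42.0 was an alternative. The gene fit was tested on simulated data. Log2 fold changes are treated minus NT. Rates are per kb per 1000000 RT stops of the library, and RNA-seq levels (RPKM) per kb of exon per 1000000 of the 31857551 alignments, each alignment taken at its midpoint in exons of 1 gene. A count of 0 was read as up to 3 counts. Sequences were read with pysam 0.24.0, other steps used Python 3.11.15, numpy 2.4.6, pandas 2.3.3, numba 0.67.0 and scipy 1.17.1, and figures matplotlib 3.10.9.

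The members, gene lists and alternatives were chosen with earlier results of these data known. The genes named are, per class, the 2 members with most RT stops at positions found once; the members with the largest change per gene; those with the highest and lowest RNA-seq level; the positions with most RT stops per treatment; the called genes of the processing and replacement lists; and members called at A in DMS or U in CMCT where these were 5 or fewer. Others were chosen as examples after their values were seen. Alternatives were RLE scaling, no filter, positions found once, the replicate number as a block, each library left out, genes with near-equal replicate counts left out, positions with near-equal replicate counts left out and each run of 25 bases counted once. Of the transcripts listed, 35 of 26827 had no match in the annotation and were not analysed here.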

Additional observations from a re-analysis of the deposited data

How the results depend on the processing

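The alternatives that left out positions with near-equal replicate counts, or counted each distinct run of 25 bases once, were chosen after seeing the data. Of the results that answer a comparison, 94 values under an alternative stayed within their limits and 62 moved. With positions found once, 1030 genes passed in DMS and 641 in CMCT (3485 and 3827 over all positions), members numbered 3 and 3, members at U in CMCT 2, and member regions 0 and 0. Without positions of near-equal replicates, genes numbered 1423 and 1875, members 0 in DMS and members at U 0, and fewer member regions passed in DMS. DESeq2 called 5593 genes in DMS, 3 members in DMS, 2 in CMCT and more members at U than edgeR. With RLE scaling 0 members passed in DMS.

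Same-numbered replicates deviated together in NT and DMS (correlation 0.577), but not in NT and CMCT (-0.046) or in DMS and CMCT (-0.099). The labels do not say that same-numbered libraries were paired, and the main fit took no pairing. It therefore leaves out what NT and DMS replicates share. With the replicate block, 5616 genes, 2 members and 30 member regions passed in DMS, and 1 member and 5 members at U in CMCT. The shares over all regions and over all genes at U in this fit are not given. The counts of member regions and of members at U are therefore not set against a background.

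With 1 library left out at a time, the lone library of a treatment is assumed to vary like the others. Genes then ran from 1719 to 4619 in DMS and 1600 to 4402 in CMCT, members from 0 to 2 and 0 to 0, members at A from 33 to 69, members at U from 0 to 1, and member regions from 5 to 18 in DMS and 3 to 16 in CMCT, where all libraries gave 19 and 14. Regions in DMS fell to 5, 9 and 6 without NT replicate 2, DMS replicate 1 and DMS replicate 2, and in CMCT to 3, 4 and 3 without NT replicate 2, CMCT replicate 1 and CMCT replicate 2. Member shares ran from 0.897% to 1.45% in NT, 1.60% to 1.75% in DMS and 1.20% to 1.41% in CMCT. Base shares ran at A from 10.3% to 12.1%, 28.0% to 41.2% and 10.1% to 11.1%, and at U from 20.5% to 26.3%, 10.5% to 14.3% and 29.4% to 32.7%. Ratios to the coding region ran from 0.20 to 0.33, 0.18 to 0.19 and 0.209 to 0.258 for the 5′ UTR, and from 0.000188 to 0.000346, 0.000246 to 0.000288 and 0.000132 to 0.000247 for the 3′ UTR. Hist1h1d at A turned to -0.058 without NT replicate 1, and rose by 2.02 without positions of near-equal replicates.

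The mean of 2 libraries moved as follows. Counting each run once, members had a share of 0.239%, 0.332% and 0.271% (NT, DMS, CMCT). At positions found once, it was 1.49% in DMS and 1.06% in CMCT, U took 30.1%, 18.1% and 38.5%, in the same order, and A 11.6% in CMCT. The 5′ UTR ratio was 1.44, 1.01 and 0.908, and the 3′ UTR ratio 0.000617, 0.000811 and 0.000596. The median RNA-seq level of members, 259, was 298 by any overlap and 104 by read starts found once. The cause of these moves was not tested. Of the values of named genes under an alternative, 135 kept direction and call, 31 lost the call, 2 gained it and 1 reversed. Only 2 libraries a treatment and reads with many places limit all of these results.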
